A study of Mus musculus with 8 samples.

Results

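The genes described here are 7 members of the *Hoxa*, *Hoxc* and *Hoxd* clusters, namely *Hoxa2*, *Hoxa7*, *Hoxc4*, *Hoxc5*, *Hoxd1*, *Hoxd3* and *Hoxd8*, measured by RNA-seq in whole newborn mouse brain. They were found by matching the Ensembl identifiers of the count table to these symbols. They make up 7 of the 29 *Hoxa*, *Hoxc* and *Hoxd* genes, 7 of the 39 *Hox* genes and 7 of the 49585 genes of that table. RNA was measured in 8 female B × C pups, which are F1 hybrids of a C57BL/6J mother and a CAST/EiJ father, collected on postnatal day 1 by the labels. The dams of 4 pups drank water with 0 ppm CdCl2 and those of the other 4 pups drank water with 50 ppm CdCl2, before and during gestation, and each pup came from a different litter. All 8 pups share the hybrid genotype, the sex and the age, so the comparison of doses is a comparison within female B × C hybrids. RNA was taken from a small portion of each pulverized whole brain. Between 22916434 and 30708087 reads per library had been counted on genes of the B (C57BL/6J, GRCm38) genome. Values are CPM, that is counts scaled to a common library size, after TMM normalization, in which a count of 0 allows up to 3 reads, or 0.0980 to 0.132 CPM. Such limits and the intervals given for shares cover counting error only.

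*Hox* genes encode homeodomain transcription factors that give the hindbrain and spinal cord their identity along the head-to-tail axis. Genes at the 3′ end of each cluster are switched on in more anterior parts of the hindbrain than genes at the 5′ end, and retinoic acid from the neighbouring mesoderm helps to set these limits. The forebrain and midbrain lie in front of the *Hox* domains, so that *Hox* transcripts in a whole brain come mainly from the hindbrain and from any spinal cord attached to it. *Hoxa2* patterns the second branchial arch and the rostral hindbrain. *Hoxd1* is an anterior gene that also marks a class of sensory neurons. *Hoxd3*, *Hoxc4* and *Hoxc5* belong to the groups expressed in the caudal hindbrain and cervical cord, while *Hoxa7* and *Hoxd8* belong to groups known from the spinal cord.

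Of the 7 members, *Hoxc4* and *Hoxc5* had a higher CPM in each exposed brain than in each control brain. *Hoxa2* and *Hoxd3* had a higher mean at 50 ppm with brains that overlapped, and *Hoxa7*, *Hoxd1* and *Hoxd8* had no more than 9 reads in any brain. None of these differences passed the test over all genes.

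A pair of control brains stood apart by low counts of most members. In 0 ppm replicate 1 only *Hoxd8* among the members had a read, and in 0 ppm replicate 2 the 5 members with reads had 1 to 9 reads each. The same brains were low in markers of medulla and spinal cord neurons. *Slc6a5*, the glycine transporter of glycinergic neurons, had 7 and 64 reads in them, against 827 and 640 in the other controls and 1598, 985, 589 and 742 at 50 ppm. Summed over 13 medulla and spinal cord neuron genes, the level was 38.4 and 42.3 CPM in these brains, 110 and 95.3 CPM in the other controls and 89.8 to 154 CPM at 50 ppm. Of these markers, *Slc18a3* was at 0 in all 8 libraries. In 0 ppm replicate 1 the cerebellar genes were low as well (9.90 CPM summed), with 0 reads of *Atoh1* against 11 to 47 in the other brains. In contrast, 0 ppm replicate 2 had the highest cerebellar sum of the 8 brains, at 32.1 CPM. Each member's result is therefore given with and without 0 ppm replicates 1 and 2. These brains were set apart by the members' own counts, so the fits without them are a description and not a separate test. In a whole-brain sample, fewer cells of a type and less RNA per cell cannot be told apart.

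*Hoxc4* (ENSMUSG00000075394) occupies chromosome 15 (GRCm38, 103018934 to 103036852, plus strand) and shares no exon with other annotated genes. It was the most counted member. Replicates 1 to 4 had 0, 3, 83 and 81 reads at 0 ppm and 280, 166, 89 and 77 reads at 50 ppm, or 0, 0.112, 2.71 and 3.14 CPM against 9.82, 5.83, 3.18 and 3.40 CPM. All 4 exposed brains lay above all 4 control brains in CPM, but 50 ppm replicate 3 was above 0 ppm replicate 4 by a small margin. Control brains averaged 1.49 ± 1.67 CPM (SD, n = 4) and exposed brains 5.56 ± 3.09 CPM (SD, n = 4). On the log2 scale this was a difference of 1.91 (standard error, SE, 0.62). Its p from the quasi-likelihood test of edgeR was 0.999 once adjusted over every gene (Benjamini-Hochberg), as all adjusted p-values below are. Without 0 ppm replicates 1 and 2 the control mean was 2.92 ± 0.301 CPM (SD, n = 2) and the log2 fold change was 0.94 (SE 0.32, edgeR adjusted p = 0.769).

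*Hoxc5* (ENSMUSG00000022485), its 5′ neighbour on chromosome 15 (102967443 to 103017429, plus strand), showed the lowest adjusted p of the members. Its long annotated span reaches past several other *Hoxc* genes, and 5.37% of its exon length is shared with *Hoxc10* on the same strand. Its reads were 0, 1, 25 and 24 at 0 ppm and 113, 73, 35 and 42 at 50 ppm, which corresponds to 0, 0.0372, 0.816 and 0.929 CPM against 3.96, 2.56, 1.25 and 1.85 CPM. Here too every exposed brain lay above every control brain. The means were 0.446 ± 0.496 CPM (SD, n = 4) and 2.41 ± 1.17 CPM (SD, n = 4). The log2 fold change was 2.43 (SE 0.58), and it did not pass over all genes tested (edgeR adjusted p = 0.383). Against 0 ppm replicates 3 and 4 alone, with 0.873 ± 0.0798 CPM (SD, n = 2), it was 1.47 (SE 0.37, edgeR adjusted p = 0.357), and each of the 4 exposed brains was above both of these control brains.

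*Hoxa2* (ENSMUSG00000014704) lies near the 3′ end of its cluster on chromosome 6 (52162417 to 52164831, minus strand), and 15.0% of its exon length is shared with *Gm28308*, a gene model on the same strand that joins exons of *Hoxa2* and *Hoxa3*. Controls had 0, 2, 42 and 45 reads, and exposed brains 87, 72, 41 and 38. In CPM these were 0, 0.0744, 1.37 and 1.74 against 3.05, 2.53, 1.46 and 1.68. Replicates 3 and 4 of both doses fell within one range, so the groups overlapped. The means were 0.797 ± 0.891 CPM (SD, n = 4) and 2.18 ± 0.741 CPM (SD, n = 4), with a log2 fold change of 1.46 (SE 0.59, edgeR adjusted p = 0.999). Without 0 ppm replicates 1 and 2 the control mean was 1.56 ± 0.262 CPM (SD, n = 2) and the log2 fold change was 0.50 (SE 0.30, edgeR adjusted p = 0.998).

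*Hoxd3* (ENSMUSG00000079277; chromosome 2, 74711927 to 74748442, plus strand) followed the same pattern. Its reads were 0, 0, 35 and 33 at 0 ppm and 104, 51, 31 and 36 at 50 ppm, or 0, 0, 1.14 and 1.28 CPM against 3.65, 1.79, 1.11 and 1.59 CPM. 50 ppm replicate 3 lay just below both of the control brains that had reads, so that the groups overlapped. The means were 0.605 ± 0.701 CPM (SD, n = 4) and 2.03 ± 1.11 CPM (SD, n = 4), with a log2 fold change of 1.75 (SE 0.64, edgeR adjusted p = 0.999). Without 0 ppm replicates 1 and 2 it was 0.76 (SE 0.36, edgeR adjusted p = 0.998). The count of *Hoxd3* is uncertain, since 62.3% of its exon length is shared with *Hoxd4* or *Gm28230* on the same strand and 8.78% overlaps *Haglr* or *Hoxd3os1* on the opposite strand. The strand setting of the counting is not given in the sources used here.

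The other 3 members were close to the limit of detection. *Hoxd8* (ENSMUSG00000027102; chromosome 2, 74704615 to 74707933, plus strand) had 9, 9, 7 and 7 reads in controls, as against 6, 0, 7 and 1 after exposure. It was thus the 1 member with reads in every control brain, and it was not lower in 0 ppm replicates 1 and 2 (0.307 and 0.335 CPM) than in 0 ppm replicates 3 and 4 (0.229 and 0.271 CPM). The exposed brains had 0.210, 0, 0.250 and 0.0441 CPM, with 2 of them within the control range or just below it. Its log2 fold change was -1.12 (SE 0.63, edgeR adjusted p = 0.999) with all brains and -0.93 (SE 0.79, edgeR adjusted p = 0.998) without 0 ppm replicates 1 and 2. *Hoxd1* (ENSMUSG00000042448; chromosome 2, 74762980 to 74765142, plus strand) had 0, 0, 4 and 6 reads against 7, 2, 1 and 1. Only 50 ppm replicate 1 exceeded the 2 control brains with reads. Its log2 fold change was 0.17 (SE 0.94, edgeR adjusted p = 0.999) with all brains and turned to -0.80 (SE 0.85, edgeR adjusted p = 0.998) without 0 ppm replicates 1 and 2.

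*Hoxa7* (ENSMUSG00000038236; chromosome 6, 52214491 to 52221854, minus strand) had 0, 3, 0 and 0 reads in controls, as against 3, 3, 3 and 4 after exposure. Every exposed brain had reads and 3 of the control brains had none, but 0 ppm replicate 2 was as high as 3 of the exposed brains. The 13 reads at 50 ppm against 3 at 0 ppm gave a ratio of 4.53 after scaling by library size, with an exact 95% interval of 1.25 to 24.8 that covers counting error only. The same ratio was 0.458 (0.226 to 0.882) for *Hoxd8* and 1.15 (0.444 to 3.02) for *Hoxd1*. In the fit of all brains, *Hoxa7* had a log2 fold change of 2.01 (SE 0.96, edgeR adjusted p = 0.999). Against 0 ppm replicates 3 and 4 alone, its 13 reads stood against 0. The log2 fold change was then 4.79 (SE 1.67, edgeR adjusted p = 0.791). Of its exon length, 20.4% overlaps *Hoxaas3* on the opposite strand.

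**Figure D1:**
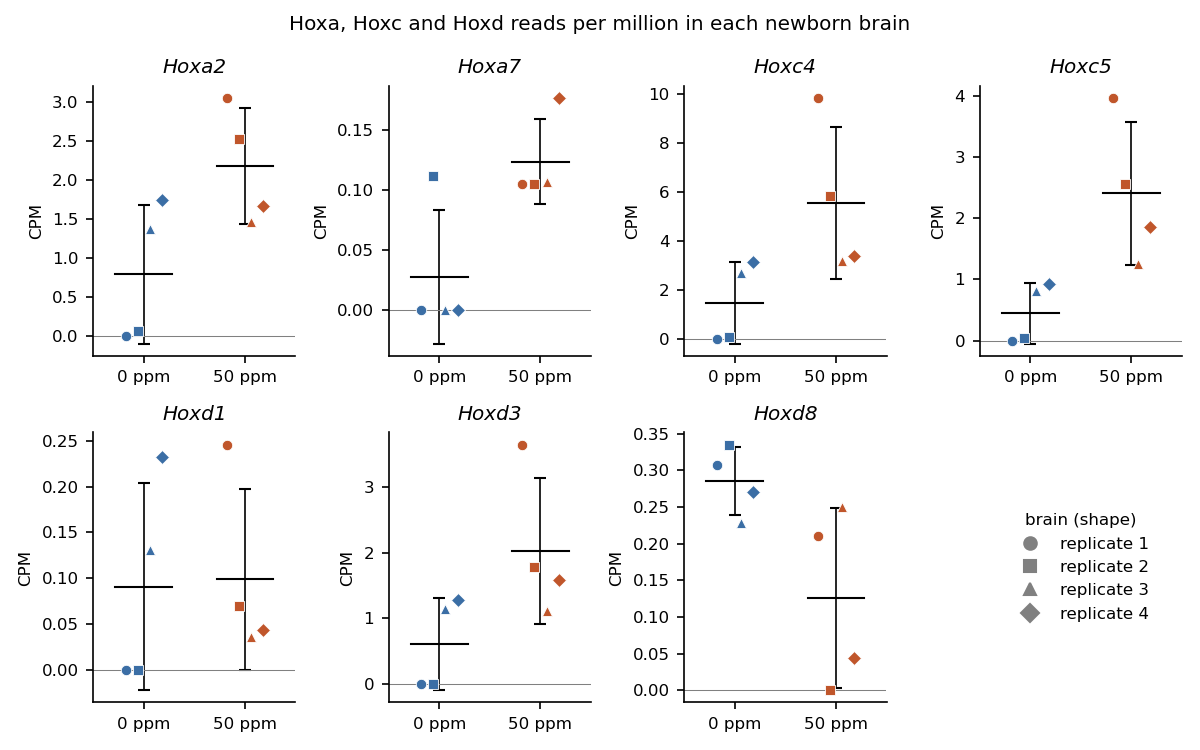
Each panel shows 1 *Hox* member, with CPM on the vertical axis and dose on the horizontal axis. Points are single brains (shape gives the replicate), the horizontal bar is the mean and the error bar 1 SD over 4 brains, which may reach below 0. In *Hoxa2*, *Hoxc4*, *Hoxc5* and *Hoxd3*, 0 ppm replicates 1 and 2 lie near 0 and 50 ppm replicate 1 is the highest brain, whereas *Hoxd8* has its 2 highest values in 0 ppm replicates 1 and 2.

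All 7 members passed the filter on low counts, and the members other than *Hoxd8* had reads in all 4 exposed brains, which was enough to pass it without a control read. The counts that follow are a description of the members. None of the 7 passed an adjusted p of 0.05 in edgeR's test, as against 4 of all 23113 genes tested (0.0173%), all 4 of which were higher at 50 ppm and 3 of which were *Hoxb* genes. At an unadjusted p under 0.05, 4 of the 7 members (*Hoxa2*, *Hoxc4*, *Hoxc5* and *Hoxd3*) were higher at 50 ppm, where 2.31% of all genes were. That number was 1 with DESeq2, 2 with a robust edgeR fit and 5 with limma-voom, which also had *Hoxd8* lower. Over all 23113 genes, 413 were higher at that p with DESeq2, 509 with the robust fit and 559 with limma-voom. The number of members was 2 without 50 ppm replicate 1, and members at that p in either direction numbered 2 to 5 over the fits that left out a single brain. The 2 members whose exposed brains all lay above the control brains, *Hoxc4* and *Hoxc5*, compare with 1.19% of all genes. The median log2 fold change was 1.75 over the 7 members and 1.60 without *Hoxa7*, against 0.00 over all genes. Without 0 ppm replicates 1 and 2, no member passed the adjusted threshold (0.0294% of all genes did). In that comparison 4 members (*Hoxa7*, *Hoxc4*, *Hoxc5* and *Hoxd3*) had an unadjusted p under 0.05, all of them higher at 50 ppm. Of all 23841 genes tested there, 4.28% reached that p in either direction, and 534 reached it with a higher level at 50 ppm. *Hoxa7* had no read in these control brains and passed the filter through the exposed brains alone, so it could only be higher. The median log2 fold change was then 0.76, or 0.63 without *Hoxa7*.

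The summed level of the 7 members was 0.307, 0.670, 6.40 and 7.59 CPM in 0 ppm replicates 1 to 4 and 21.0, 12.9, 7.39 and 8.78 CPM in 50 ppm replicates 1 to 4. Control brains thus averaged 3.74 ± 3.79 CPM (SD, n = 4) and exposed brains 12.5 ± 6.14 CPM (SD, n = 4). Without 0 ppm replicates 1 and 2 the control mean was 6.99 ± 0.841 CPM (SD, n = 2), and 50 ppm replicate 3 lay between those 2 control brains. Without 50 ppm replicate 1, which held the most *Hox* reads, the exposed mean was 9.68 ± 2.86 CPM (SD, n = 3).

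These sums moved with the medulla and spinal cord list. Of its 13 genes, 11 were tested and none passed an adjusted p of 0.05 in edgeR, DESeq2 or limma-voom. At an unadjusted p under 0.05, 8 were higher at 50 ppm with edgeR, 4 with DESeq2 and 8 with limma-voom. Over all 23113 genes these numbers were 534, 413 and 559. *Slc6a5* had a log2 fold change of 1.41 (SE 0.62), *Glra1* (a glycine receptor subunit) 1.42 (SE 0.41) and *Phox2a*, a transcription factor of noradrenergic hindbrain neurons, 1.41 (SE 0.50). These were 0.48 (SE 0.21), 0.68 (SE 0.28) and 0.76 (SE 0.48) without 0 ppm replicates 1 and 2, and the median over the 11 genes was then 0.66 instead of 1.16. With no filter on low counts, 3 genes of the list passed in edgeR (*Glra1*, *Lbx1* and *Prph*), and *Glra1* and *Prph* passed without 0 ppm replicate 3. With the mean log2 CPM of that list as a covariate in the fit, the log2 fold change was -0.56 (SE 0.44) for *Hoxa2*, -0.41 (SE 0.40) for *Hoxc4*, 0.25 (SE 0.50) for *Hoxc5* and -0.65 (SE 0.48) for *Hoxd3*. Their direction thus turned for all of these except *Hoxc5*, and no member passed the adjusted threshold. The list's score differs between doses too, so that a difference in dose and a difference in the amount of hindbrain and cord RNA cannot be told apart in this fit.

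**Figure D2:**
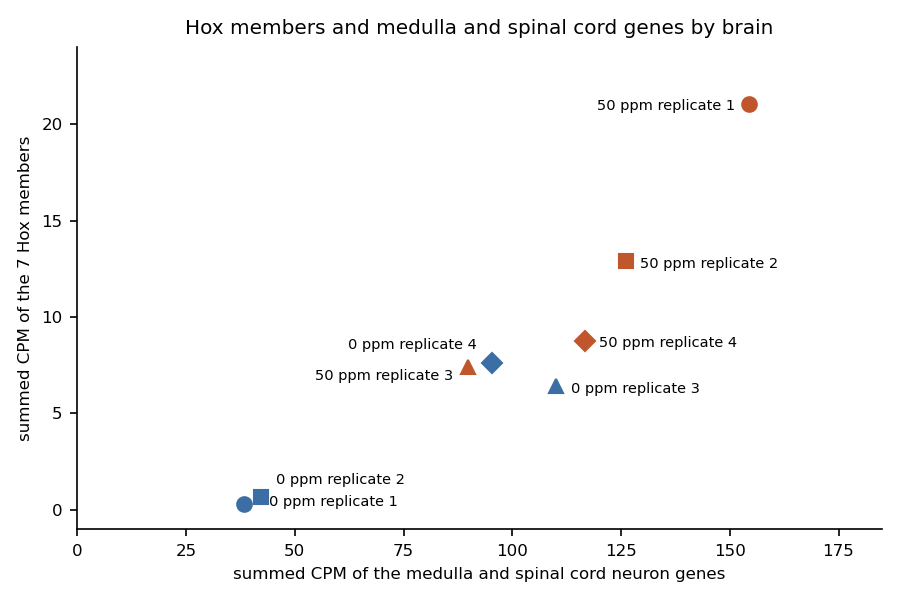
The summed CPM of the 7 *Hox* members (vertical axis) is plotted against the summed CPM of 13 medulla and spinal cord neuron genes (horizontal axis), with 1 point per brain coloured by dose (blue 0 ppm, orange 50 ppm). The brains at 0.307 and 0.670 CPM of *Hox* members are those at 38.4 and 42.3 CPM of the marker genes, and 50 ppm replicate 1 is highest on both axes.

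**Figure D3:**
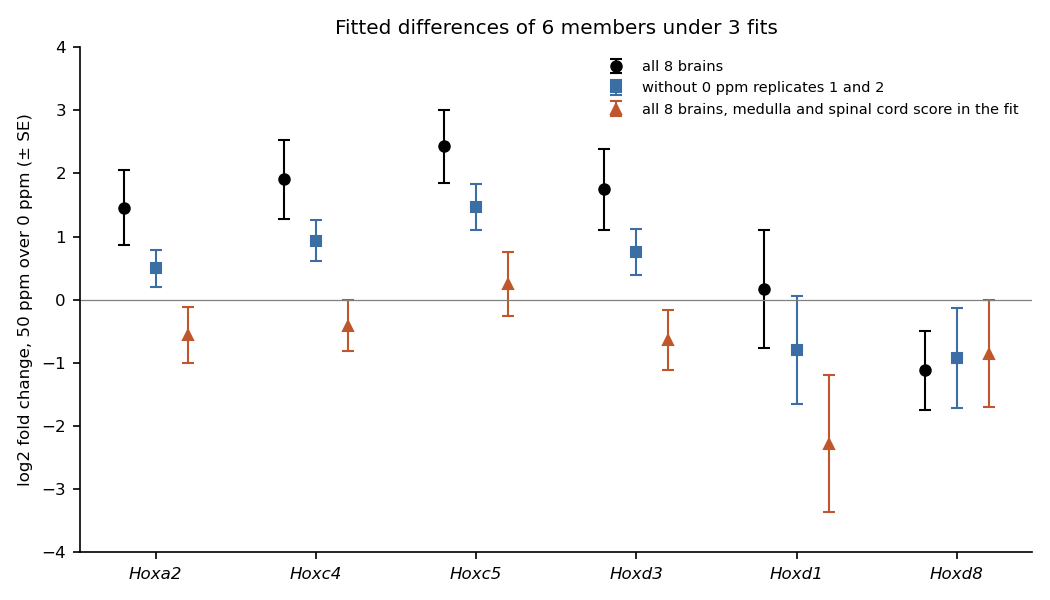
The log2 fold change of 50 ppm over 0 ppm (vertical axis, error bars 1 standard error from edgeR) is shown for 6 members in the fit of all 8 brains (black circles), without 0 ppm replicates 1 and 2 (blue squares) and with the medulla and spinal cord score in the fit (orange triangles). *Hoxc5* is the highest of the 6 in each fit, at 2.43, 1.47 and 0.25, while *Hoxa7* is left out because its controls held 3 reads in all.

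Markers of other tissues that a dissection could carry along were also read. The peripheral nerve and ganglion list summed to 9.90 to 19.9 CPM at 0 ppm and 18.1 to 24.3 CPM at 50 ppm, with 0 of 6 tested genes past the adjusted threshold and 2 of 6 higher at an unadjusted p under 0.05. Within it, *Pmp2*, a myelin protein of Schwann cells, was at 0 in all libraries. The skeletal muscle list lay at 10.3 to 13.2 CPM and 10.1 to 13.1 CPM, the cartilage and bone list at 18.1 to 23.8 CPM and 14.0 to 22.9 CPM, and the meninges list at 325 to 443 CPM and 374 to 444 CPM. The pons and raphe list lay at 21.1 to 29.6 CPM and 19.4 to 59.5 CPM, with 2 of 5 genes higher at an unadjusted p under 0.05, *Slc6a2* (log2 fold change 1.46, SE 0.52) and *Dbh* (1.38, SE 0.42), both of noradrenergic neurons and named after their values were seen. By the same test of edgeR, 1 of 5 genes was higher in the cerebellum list, 1 of 8 was higher in the meninges list, and 1 of 5 in the midbrain list and 1 of 6 in the cartilage and bone list were lower, while none was in the muscle, erythroid and choroid plexus lists. The cerebellum list lay at 9.90 to 32.1 CPM and 21.2 to 29.0 CPM. The midbrain list ranged over 27.9 to 54.0 CPM and 29.3 to 53.6 CPM. The forebrain list lay at 787 to 1226 CPM and 849 to 1015 CPM, with its 2 highest values in 0 ppm replicates 1 and 2 and 6 of 12 genes lower at 50 ppm at an unadjusted p under 0.05. Over all 23113 genes tested with edgeR, 534 were higher and 332 lower at that p. Erythroid genes summed to 127 to 311 CPM and 99.2 to 402 CPM, and choroid plexus genes to 459 to 1212 CPM and 357 to 807 CPM. None of the genes of these lists passed the adjusted threshold in edgeR, DESeq2 or limma-voom on the filtered genes of all 8 brains. With no filter on low counts *Dbh* passed (edgeR adjusted p = 0.0430), and without 0 ppm replicate 3 so did *Sncg* of the peripheral nerve and ganglion list (edgeR adjusted p = 0.0276). The part of these tissues in the *Hox* values was not tested.

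Levels can be compared between members only per length. Per kilobase of annotated exon, *Hoxc4* was highest at 50 ppm with 2.16 ± 1.20 CPM per kb (SD, n = 4). *Hoxa2* followed with 1.23 ± 0.418 CPM per kb (SD, n = 4), then *Hoxc5* with 0.779 ± 0.378 CPM per kb (SD, n = 4) and *Hoxd3* with 0.485 ± 0.266 CPM per kb (SD, n = 4). The last 3 were *Hoxd1* with 0.0531, *Hoxd8* with 0.0460 and *Hoxa7* with 0.0429 CPM per kb, which did not differ beyond their spread. Between neighbours in this order, *Hoxc4* and *Hoxa2* differed by less than the SD of *Hoxc4*, and *Hoxc5* and *Hoxd3* by less than the SD of *Hoxc5*. Within single brains the order of the 4 best counted members was the same in all 4 exposed brains. In 0 ppm replicates 3 and 4 *Hoxd3* stood above *Hoxc5* instead, at 0.273 against 0.264 and 0.305 against 0.301 CPM per kb, which are differences within counting error. The level of *Hoxd3* per kb counts exon length in which shared reads may not have been assigned to it.

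Ratios between members within a brain do not depend on library size. They were chosen after the counts had been seen and are given without a test, for the 6 brains with at least 10 reads of each pair. *Hoxc5* made up 23.1% and 22.9% of the reads of *Hoxc5* and *Hoxc4* in 0 ppm replicates 3 and 4, with exact 95% intervals of 15.6% to 32.2% and 15.2% to 32.1%. In the exposed brains it made up 28.8%, 30.5%, 28.2% and 35.3%, so that each exposed brain was above both controls, with an interval of 24.3% to 33.5% for the best counted brain, 50 ppm replicate 1. The intervals of single brains overlapped between the doses, and the difference was not tested. *Hoxa2* made up 33.6% and 35.7% of the reads of *Hoxa2* and *Hoxc4* in controls and 23.7%, 30.3%, 31.5% and 33.0% after exposure, all below the controls. *Hoxd3* made up 29.7% and 28.9% of the reads of *Hoxd3* and *Hoxc4* in controls and 27.1%, 23.5%, 25.8% and 31.9% after exposure, on both sides of the controls. The 3 ratios share the reads of *Hoxc4* and so are not independent of each other.

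**Figure D4:**
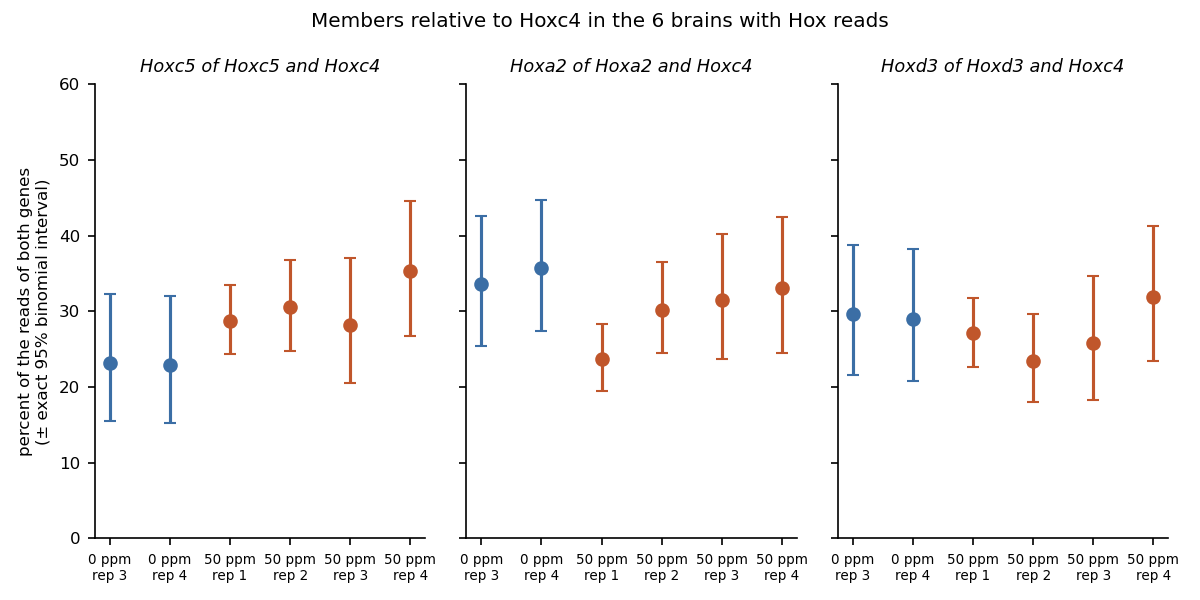
For 3 pairs of members, the reads of the first gene are shown as a percent of the reads of both (vertical axis) in each of the 6 brains with at least 10 reads of each pair (horizontal axis; blue 0 ppm, orange 50 ppm), with exact 95% binomial intervals. The share of *Hoxc5* is 22.9% to 23.1% in the control brains and 28.2% to 35.3% in the exposed brains, with overlapping intervals.

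The members also differed in how closely they followed one another across brains. Over the 8 brains, the log2 CPM of *Hoxa2*, *Hoxc4*, *Hoxc5* and *Hoxd3* had a Pearson correlation of 0.97 to 0.99 with the mean of the other members. These values rest largely on the 2 control brains near 0, and over the other 6 brains they were 0.85, 0.92, 0.76 and 0.95. The values were lower for *Hoxd1* (0.75 over 8 brains and 0.29 over 6) and *Hoxa7* (0.24 and 0.14), and *Hoxd8* ran the other way (-0.52 and -0.29). The brains share the contrast of doses and the depth scaling, and the correlations are a description. Among other genes reaching 10 counts in 4 or more libraries, the 10 whose log2 CPM followed the mean of the members most closely over the 8 brains were *Mab21l2* (0.99), *Lamp5* (0.99), *Ppp1r1c* (0.98), *Tlx1* (0.98), *Flt3* (0.97), *Slc6a5* (0.97), *Syt2* (0.97), *Gm28308* (0.97), *Sv2c* (0.97) and *Tmem255a* (0.96). Over the 6 brains without 0 ppm replicates 1 and 2 these values were 0.67 (*Syt2*) to 0.90 (*Mab21l2*), with 0.76 for *Sv2c* and 0.78 for *Flt3*. *Gm28308* shares exons with *Hoxa2*, so its place in this list is not independent of it.

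Within the *Hoxa*, *Hoxc* and *Hoxd* clusters, 22 further genes are listed in the table and 18 of them had 0 reads in all 8 libraries. Of the 22, 2 passed the filter on low counts, and neither passed the test. Of these, *Hoxd13*, at the posterior end, was at 0 in every control brain and had 1, 0, 1 and 2 reads after exposure, within the limit that a count of 0 allows. The genes at 0 in all libraries include neighbours of the members, such as *Hoxa3*, *Hoxa4*, *Hoxa5*, *Hoxc6* and *Hoxd4*. Of these 18 genes, 10 share no exon with another gene in the annotation used, among them *Hoxa5* and *Hoxc6*, and of the 7 members 3 share none. These overlaps come from a later annotation release than the one used for counting, and the part of the counting rules in the counts of 0 was not tested. The paper's qRT-PCR, on brains that included these 8, found *Hoxa5* and *Hoxa6* higher at 50 ppm than in controls. A count of 0 here is thus not a measure of absent transcript. The same qRT-PCR also covered *Hoxc* and *Hoxd* genes, and the paper reports consistent detectable amplification for *Hoxa* and *Hoxb* genes only. The *Hoxc* and *Hoxd* members counted here thus did not meet that criterion at any dose. In the *Hoxb* cluster, 7 of 10 genes were tested and 3 passed, with *Hoxb6* at 0, 0, 3 and 12 reads against 291, 47, 35 and 66.

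Noncoding transcripts of the *Hox* clusters were low as well. The list read here includes *Hoxb3os* and *Hoxb5os*, both tested, which lie in the *Hoxb* cluster and not among the members. Of 12 noncoding genes of the clusters, 11 are in the table, 7 were tested, none passed the adjusted threshold in edgeR, DESeq2 or limma-voom, and all 7 had a positive log2 fold change (median 1.29). Of the 7, 5 were positive without 0 ppm replicates 1 and 2, with a median of 0.31. At an unadjusted p under 0.05, 3 were higher with edgeR, 3 with DESeq2 and 4 with limma-voom. The 3 with edgeR included *Hoxb5os* (log2 fold change 2.57, SE 0.89). *Hotairm1*, a noncoding gene of the *Hoxa* cluster, had 1, 2, 10 and 7 reads against 16, 8, 9 and 2. *Hoxaas2*, antisense to *Hoxa3*, had 0, 2, 0 and 1 reads against 16, 12, 8 and 3, with every exposed brain above every control brain (log2 fold change 3.52, SE 0.77, edgeR adjusted p = 0.298, or 0.0276 with no filter on low counts). *Hoxaas3*, which overlaps *Hoxa7*, had 0, 0, 4 and 12 reads against 25, 6, 3 and 5.

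Hox proteins bind DNA together with Meis, Pbx and Pknox partners, and all 9 of these genes were well expressed. None of them passed the adjusted threshold in edgeR, DESeq2 or limma-voom, and 1 had an unadjusted p under 0.05 in each, which was *Meis1* with edgeR. *Meis1* had 22.8 ± 5.32 CPM (SD, n = 4) in controls and 32.3 ± 4.51 CPM (SD, n = 4) after exposure, with every exposed brain above every control brain, and a log2 fold change of 0.51 (SE 0.14, edgeR adjusted p = 0.789) that was 0.31 (SE 0.12) without 0 ppm replicates 1 and 2. The log2 fold changes were -0.11 (SE 0.07) for *Meis2* and -0.15 (SE 0.10) for *Meis3*. The median over the 9 genes was -0.08. Named after its values were seen, *Pbx2* had every exposed brain below every control brain (log2 fold change -0.16, SE 0.08, edgeR adjusted p = 0.999). Without 0 ppm replicates 1 and 2, 1 of the 9 genes was higher and 2 were lower at an unadjusted p under 0.05 (edgeR).

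Of 16 genes that set *Hox* expression in the hindbrain, such as segment-specific transcription factors, fibroblast growth factors and the enzymes and receptors of retinoic acid, 14 were tested and none passed in edgeR, with 7 positive and 7 negative log2 fold changes. *Egr2*, which activates *Hoxa2* in the embryonic hindbrain, had a log2 fold change of 0.06 (SE 0.26) and *Gbx2* -0.26 (SE 0.18). Named after their values were seen, 3 genes had an unadjusted p under 0.05, namely *Aldh1a2* (0.44, SE 0.10) and *Cyp26b1* (0.42, SE 0.10), which make and clear retinoic acid, and the receptor gene *Rarb* (-0.30, SE 0.12). *Aldh1a2* had 16.6 ± 0.744 CPM (SD, n = 4) in controls and 22.5 ± 1.88 CPM (SD, n = 4) after exposure, with every exposed brain above every control brain. It did not pass in edgeR (adjusted p = 0.298) but passed in DESeq2 (log2 fold change 0.44, SE 0.10, adjusted p = 0.0127), the only gene of the 14 to do so. *Cyp26b1* did not pass in edgeR (adjusted p = 0.421) but passed with no filter on low counts (adjusted p = 0.0337). No gene of the 14 passed with limma-voom. Of 17 genes of the Polycomb and Trithorax groups, which keep *Hox* clusters silent or active, none passed in edgeR, DESeq2 or limma-voom, and 2 were lower at an unadjusted p under 0.05 in each. Their log2 fold changes were small, at -0.03 (SE 0.09) for *Ezh1*, -0.19 (SE 0.09) for *Ezh2*, -0.06 (SE 0.11) for *Eed* and -0.04 (SE 0.08) for *Suz12*, and 16 of the 17 were negative.

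The sequence just upstream of a gene's start was available for 6 of the 7 members in the RefSeq table used (GRCm38.p6). The windows of *Hoxa2* and *Hoxd8* are shown because they belong to a member that was near 0 in 0 ppm replicates 1 and 2 and to the member that was not, and because they hold no annotated exon. Each window is the 250 bases before the RefSeq start, on the gene's own strand from 5′ to 3′, at chr6:52164832-52165081 (minus strand) for *Hoxa2* and chr2:74704365-74704614 (plus strand) for *Hoxd8*. Capitals mark matches, on either strand, to AGGTCA (the half-site of retinoid receptors), TGACAG (Meis and Pknox proteins), TGATNNAT (Pbx and Hox proteins), CCAAT and TATAAA.
Hoxa2: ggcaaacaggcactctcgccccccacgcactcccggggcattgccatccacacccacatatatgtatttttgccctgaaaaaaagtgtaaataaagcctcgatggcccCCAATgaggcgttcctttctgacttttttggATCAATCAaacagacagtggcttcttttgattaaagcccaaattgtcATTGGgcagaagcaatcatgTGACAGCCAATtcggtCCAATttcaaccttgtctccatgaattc
Hoxd8: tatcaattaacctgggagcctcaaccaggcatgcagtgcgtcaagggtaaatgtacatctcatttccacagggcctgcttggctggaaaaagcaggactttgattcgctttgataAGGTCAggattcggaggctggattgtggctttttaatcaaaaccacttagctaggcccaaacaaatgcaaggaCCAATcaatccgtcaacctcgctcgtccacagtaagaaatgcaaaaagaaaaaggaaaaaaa
The *Hoxa2* window holds 4 matches to CCAAT, 1 to TGACAG directly before one of them and 1 to TGATNNAT on the reverse strand. The *Hoxd8* window holds 1 match to AGGTCA and 1 to CCAAT. Among 32851 windows of this length, 14.0% hold AGGTCA, 15.9% TGACAG, 7.68% TGATNNAT, 33.8% CCAAT and 12.4% TATAAA on either strand, and neither window shown holds TATAAA. Of the windows not shown, those of *Hoxc4* and *Hoxd3* hold 1 match to AGGTCA each, on the reverse strand. All 250 bases of the *Hoxc4* window (chr15:103034145-103034394) lie in annotated exon, inside the gene span given above. The *Hoxd3* window has 66 bases in annotated exon. A match is a run of letters and not a measured binding site. GC content was 46.4% in the *Hoxa2* window and 44.4% in the *Hoxd8* window, against a median of 52.4% over all windows.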

How the data were processed

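Poly(A) RNA from whole brain of 8 newborn female B × C pups was sequenced as single-end reads from strand-specific libraries. The authors deposited raw counts of reads per gene without normalization. They assessed reads with FastQC, trimmed the initial 10 bases, aligned them with STAR to the B (GRCm38, Ensembl annotation) and C genomes, counted them with htseq-count and tested them with DESeq2. The versions and the strand setting of these steps are not given in the sources used here. Groups were taken from the treatment label. Replicate numbers only name pups.

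Following the study's methods, a gene was dropped if over 2/3 of its libraries had no count. Counts were normalized with TMM and tested with edgeR 4.0.16 (glmQLFit and glmQLFTest, treatment as the only term) in R 4.3.3. Benjamini-Hochberg adjustment covered the 23113 tested genes at a threshold of 0.05. P-values measure the spread between single pups of different litters. Standard errors were derived from the F statistic. Log2 CPM for correlations used a prior count of 2. The code was tested on simulated data. Alternatives used DESeq2 1.42.0, limma 3.58.1 (voom), other filters and size factors, a robust fit, a covariate, and fits without single brains or without 0 ppm replicates 1 and 2. The sum of the members' CPM without those brains was an alternative chosen after seeing the data.

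Gene names matched 49326 of the 49585 identifiers of the B table. The identifiers of the C table could not be paired with the members, so that alignment was used for counts over all genes only. Positions and exon overlaps came from GENCODE vM21 on GRCm38, a later release than the one the reads were counted on, and upstream sequences from RefSeq. All 7 members were named with every library's value, as were cluster neighbours that passed the filter. In other lists up to 4 genes were named in list order with any past the threshold, and 10 genes by likeness of pattern. Some genes that this rule names are not reported here. The members, lists and tests were chosen with earlier results of these data known. The *Hox* measurements made by qRT-PCR were not analysed here. Figures were drawn with matplotlib 3.10.9.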

Additional observations from a re-analysis of the deposited data

Results flagged for a closer look

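In groups of 4 brains, 3 values of the members lay far from the other 3 brains of their dose by Dixon's criterion. Chance meets this criterion in about 1 of 20 groups of normally distributed values. That rate need not hold for counts this low, many of them tied. *Hoxa7* in 0 ppm replicate 2 was at 0.112 CPM (3 reads) where the other control brains had 0, and *Hoxa7* in 50 ppm replicate 4 was at 0.176 CPM (4 reads) where the other exposed brains had 3 reads each. *Hoxd1* in 50 ppm replicate 1 was at 0.246 CPM (7 reads) where the other exposed brains had 1 or 2 reads. The first pair of values differ from their neighbours by no more than 3 reads, the number that a count of 0 allows.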

How the results depend on the processing

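No paired analysis was possible because the labels give the pups no replicate numbers. The number of genes called in the fit of all brains (4) was 18 with DESeq2, 52 with no filter, 2 with at least 10 counts in 4 libraries, 1 with limma-voom, 7 without both control brains near 0, 2 in the alignment to the C genome and 2 to 20 without single brains. It was 2 when 0 ppm replicate 1, 0 ppm replicate 2 or 50 ppm replicate 4 was left out, 20 without 0 ppm replicate 3 and 8 without 50 ppm replicate 3. The number of members called (0) was 2 with no filter, *Hoxc4* (adjusted p = 0.0367 from edgeR) and *Hoxc5* (adjusted p = 0.00286 from edgeR), and 0 in the other 15 alternatives that tested members, including each fit without a single brain. At least 10 counts in 4 libraries left 4 members to test. The cause of these changes was not tested.

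Of 109 member values under alternatives, 101 kept the direction. With the medulla and spinal cord score as covariate the log2 fold changes of *Hoxa2* (-0.56), *Hoxc4* (-0.41), *Hoxd1* (-2.28) and *Hoxd3* (-0.65) reversed. *Hoxd1* also reversed without both control brains near 0 (-0.80) and when 0 ppm replicate 1 (-0.24), 0 ppm replicate 2 (-0.22) or 50 ppm replicate 1 (-0.77) was left out, with a range of -0.77 to 1.08 over single brains. It had 10 reads at 0 ppm and 11 at 50 ppm. With limma-voom the log2 fold changes of *Hoxc4* (3.80) and *Hoxa2* (3.11) were larger than with edgeR. The difference of the members' summed level, 8.78 CPM, ranged from 5.94 CPM without 50 ppm replicate 1 to 10.5 CPM without 50 ppm replicate 3, and was 5.53 CPM without both control brains near 0. With a prior count of 0.5, 8 of the 10 genes most like the members were the same. The low counts of *Hoxa7*, *Hoxd1* and *Hoxd8* limit what can be said of them.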

Other observations

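The share of the member reads taken by *Hoxd8* was high in the 2 control brains near 0. In 0 ppm replicate 1 all 9 member reads were of *Hoxd8*, and in 0 ppm replicate 2 it took 9 of 18, or 50.0% with an exact 95% interval of 26.0% to 74.0%. In the other 6 brains it took 0% to 3.57%, with an upper limit of 7.22% in 0 ppm replicates 3 and 4.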
